A study of Mus musculus with 6 samples.

Results

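The genes described here encode 9 interferon-induced GTPases: Gbp2, Gbp3, Gbp6, Gbp7 and Gbp9 of the guanylate-binding protein (GBP) family, and Irgm1, Irgm2, Igtp and Iigp1 of the immunity-related GTPase (IRG) family. They were listed by symbol, with no threshold on a measured value, and were 9 of the 49671 genes in a table of RNA-seq read counts. The cells were mouse LSK cells, which lack lineage markers, carry Sca-1 and Kit and include the blood stem cells and multipotent progenitors of the marrow, from BALB/c mice whose age is not given in the sources used here. Enriched marrow was exposed to a retrovirus that carried either a hairpin to knock down Cxxc5 (shCxxc5) or a hairpin matching no mouse gene (shCtrl), so both groups had been infected, and GFP-positive LSK cells were sorted. There were 3 libraries per group, numbered 2, 3 and 4 in each, and every library came from between 20000 and 50000 cells of several mice combined. The sources used here do not say what a replicate number stands for, so the spread behind each p-value is that between these libraries and may be technical.

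GBPs are large GTPases that assemble on the membranes of vacuoles holding bacteria or parasites and on bacteria in the cytosol, where they help to break the compartment open and to activate caspase-11 and the inflammasome. IRG proteins fall into effectors such as Iigp1, which coat a pathogen's vacuole, and the regulators Irgm1, Irgm2 and Igtp (also called Irgm3), which sit on the cell's own membranes and hold the effectors inactive there. Interferon gamma induces both families through the kinases JAK1 and JAK2, through gamma-activated sites (GAS) in DNA, and through the factor IRF1. Type I interferons act through a complex that includes STAT2 and IRF9 and binds the interferon-stimulated response element (ISRE). In blood stem cells interferons are known to bring resting cells into division, and Irgm1 is known to be needed for the stem cell pool to be maintained.

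Promoter windows were examined because these motifs are what the 9 genes are best known to share. RefSeq windows of GRCm38.p6, from 250 bases before to 50 bases after an annotated start, were matched for 6 of the 9 genes (Gbp2, Gbp3, Gbp7, Irgm1, Irgm2 and Igtp). The ISRE was searched as the letters GAAA, any 2 bases and GAAA again, and the GAS as TTCNNNGAA, where N is any base, both on either strand. No ISRE match overlapped a GAS match in the stretches shown. These 6 genes had 7 windows, since Gbp3 had 2. An ISRE match was found in 6 of the 7, with 1 of the Gbp3 windows lacking it, whereas 3.44% of all 32851 windows of 300 bases held one. A GAS match was found in 3 of the 7, those of Gbp7, Irgm2 and Igtp, against 8.30% of all windows. The stretches around the ISRE matches are shown 5′ to 3′ on the gene's own strand, because they let the genes be compared base by base. Capitals mark motif matches, which are descriptions of letters and not measured binding sites.
Gbp2: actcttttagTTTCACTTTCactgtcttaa
Gbp3: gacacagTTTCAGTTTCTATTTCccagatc
Gbp7: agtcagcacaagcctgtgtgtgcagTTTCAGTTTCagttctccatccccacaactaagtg
Irgm1: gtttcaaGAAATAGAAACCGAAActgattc
Irgm2: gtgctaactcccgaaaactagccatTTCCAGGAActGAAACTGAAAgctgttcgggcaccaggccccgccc
Igtp: ccatTTCTAGGAActGAAACTGAAAgctgt

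The Gbp2 stretch lies at chr3:142620594-142620623 on the plus strand, with its match from 59 to 50 bases before the RefSeq start, and overlaps a GENCODE exon. That of Gbp3 lies at chr3:142559992-142560021 (plus strand) and holds 2 overlapping ISRE matches, the first at 45 to 36 and the second at 39 to 30 bases before the start. The Gbp7 stretch lies at chr3:142530258-142530317 (plus strand). Its ISRE match lies 53 to 44 bases before the start, and 2 GAS matches lie further upstream, outside the stretch shown. In Irgm1, at chr11:48871428-48871457 on the minus strand, 2 overlapping matches span the bases from 30 to 15 before the start, and the stretch overlaps a GENCODE exon. In Irgm2, at chr11:58214877-58214947 (plus strand), and in Igtp, at chr11:58199507-58199536 (plus strand), a GAS match stands directly before an ISRE match, and both genes carry the letters GAAACTGAAA. The GAS of Irgm2 lies 75 to 67 bases before its start and that of Igtp 45 to 37 bases before.

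The 9 genes lie in 4 chromosomal groups of the GRCm38 build (GENCODE M21). Gbp7 (chr3:142530342-142550149), Gbp3 (chr3:142560026-142573209) and Gbp2 (chr3:142620602-142638008) lie close together on the plus strand of chromosome 3, with Gbp2b between Gbp3 and Gbp2. Gbp9 (chr5:105077630-105139539) and Gbp6 (chr5:105270702-105293698) lie on the minus strand of chromosome 5. Irgm1 (chr11:48861968-48871683, minus strand) lies on chromosome 11, apart from Igtp (chr11:58199556-58207591) and Irgm2 (chr11:58199618-58222782), which overlap on the plus strand. Iigp1 (chr18:60376027-60392634, plus strand) lies on chromosome 18.

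Library totals ranged from 15002414 to 27754019 counts. Cxxc5, the targeted gene, was at 82.2, 59.9 and 57.9 CPM (counts divided by library size, scaled by TMM, a correction for library composition) in shCtrl replicates 2, 3 and 4, and at 6.74, 17.4 and 17.9 CPM in shCxxc5 replicates 2, 3 and 4, so no shCxxc5 library reached the shCtrl level. The pair numbered 2 stood apart from the other 4 libraries in both groups. Of 14637 genes tested, 5330 differed between replicate 2 and replicates 3 and 4 with the group in the model (edgeR quasi-likelihood test, Benjamini-Hochberg adjusted p under 0.05). The effect of the hairpin is therefore given below with and without replicate 2.

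Replicate 2 had the lowest level of each of the 9 GTPase genes, in both groups. Among the GBPs on chromosome 3, Gbp2 was at 12.8, 44.3 and 40.3 CPM in shCtrl replicates 2, 3 and 4, and at 14.0, 32.0 and 34.9 CPM in shCxxc5 replicates 2, 3 and 4. Gbp3 was at 20.5, 141.8 and 138.5 CPM in shCtrl and 20.8, 122.3 and 123.8 CPM in shCxxc5, in the same order of replicates. Gbp7 was at 60.1, 226.9 and 230.2 CPM in shCtrl and 76.7, 271.4 and 262.6 CPM in shCxxc5. For these 3 genes replicates 3 and 4 of a group lay close together, and the drop in replicate 2 was far larger than the distance between the groups.

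On chromosome 5, Gbp9 was at 19.9, 33.1 and 33.4 CPM in shCtrl replicates 2, 3 and 4, and at 7.57, 28.3 and 28.2 CPM in shCxxc5. It was the member whose 2 replicate 2 libraries were least alike. Gbp6 was close to the limit of detection, with raw counts of 0, 28 and 11 in shCtrl and 2, 17 and 21 in shCxxc5. A count of 0 allows up to 3 counts (counting error only), so its absence from shCtrl replicate 2 was not established.

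Of the IRG regulators, Irgm1 was at 86.3, 310.2 and 307.5 CPM in shCtrl replicates 2, 3 and 4, and at 91.0, 335.8 and 334.6 CPM in shCxxc5. Irgm2 was at 19.0, 60.7 and 58.1 CPM in shCtrl and 14.1, 61.8 and 56.5 CPM in shCxxc5. Igtp was at 36.3, 194.1 and 190.7 CPM in shCtrl and 35.6, 206.0 and 203.3 CPM in shCxxc5. None of the 3 regulators had a replicate 2 library near the other 4. The effector Iigp1 was at 8.45, 132.7 and 124.9 CPM in shCtrl and 9.52, 120.9 and 119.0 CPM in shCxxc5, which left replicate 2 at 6.56% of the mean of replicates 3 and 4 in shCtrl and 7.94% in shCxxc5.

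**Figure D1:**
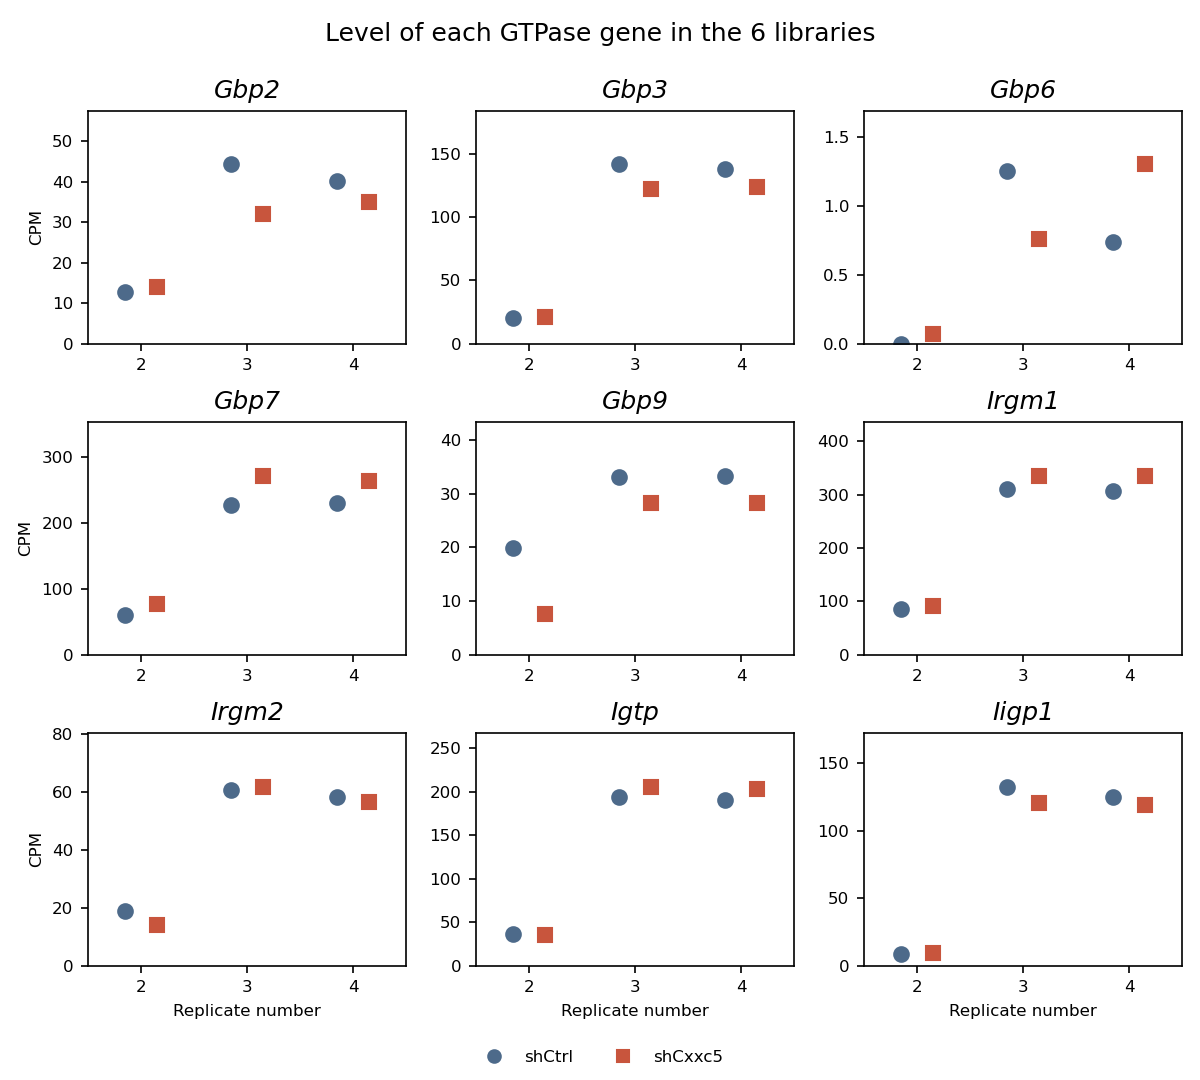
TMM-scaled CPM (y axis, a separate linear scale for each gene, starting at 0) of the 9 GTPase genes by replicate number (x axis), with 1 point per library, shCtrl as circles and shCxxc5 as squares. Both replicate 2 points lie below the other 4 in every panel, and within a replicate number the ratio between the groups, Gbp6 aside, is farthest from 1 for Gbp9 in replicate 2 (19.9 against 7.57 CPM).

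Divided by exon length (CPM per kilobase, the only scale on which levels of different genes are compared here), the order in replicates 3 and 4 began with Igtp at a mean of 98.2 and Irgm1 at 55.4. Gbp7 at 44.1 and Gbp3 at 40.3 followed with overlapping ranges over the 4 libraries (40.4 to 48.3 and 37.5 to 43.4). Iigp1 at 21.4 came next, ahead of Irgm2 at 16.1 and Gbp2 at 15.1, whose ranges also overlapped (15.3 to 16.7 and 12.7 to 17.6). Gbp9 at 5.94 and Gbp6 at 0.170 were lowest. The other neighbours in the order had ranges that did not overlap. Replicate 2 kept Igtp (17.8), Irgm1 (15.3), Gbp7 (12.2) and Gbp3 (6.33) in the first 4 places, but the mean of Iigp1 (1.54) fell below those of Gbp2 (5.34) and Irgm2 (4.49). Against Gbp9 the 2 replicate 2 libraries differed, with Iigp1 at 1.45 and Gbp9 at 3.85 in shCtrl and Iigp1 at 1.63 and Gbp9 at 1.46 in shCxxc5.

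With the group in the model, 9 of the 9 genes were lower in replicate 2 than in replicates 3 and 4 at an adjusted p under 0.05, beside 18.7% of all genes tested. Gbp6 passed the filter on low counts only through replicates 3 and 4, where it was higher, so its call adds nothing to that count. The share of all genes whose 2 replicate 2 libraries both lay below the other 4 was 25.4%. The median log2 fold change of the 9 genes was -1.86, beside -0.00367 over all genes tested. With library totals in place of TMM the calls over all genes shifted from 2588 higher and 2742 lower to 3139 higher and 2119 lower, and the 9 genes were still called lower. The labels do not state what separated number 2, nor which libraries had single reads of 50 cycles or paired reads of 125 cycles. The part of the read format was not tested. Fewer cells of a type and less RNA per cell cannot be told apart in bulk libraries.

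Iigp1, the vacuole-coating effector, had the lowest fitted value among the 8 genes with usable counts in every library, at a log2 fold change of -3.79 ± 0.10 (SE, edgeR quasi-likelihood test, Benjamini-Hochberg adjusted p = 5.93e-06), which is 13.8-fold lower in replicate 2. Gbp3 followed at -2.67 ± 0.08 (adjusted p = 8.12e-06), and Igtp at -2.47 ± 0.06 (adjusted p = 5.83e-06). The middle of the range held Gbp7 and Irgm1, both at -1.86, and Irgm2 at -1.85. These spanned both families and 2 chromosomes, with SEs of 0.06, 0.05 and 0.12.

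The genes nearest to 0 were Gbp2, at -1.48 ± 0.13 (edgeR adjusted p = 0.00064), and Gbp9, at -1.27 ± 0.25 (adjusted p = 0.0118). For Gbp9 the value rested on which replicate 2 library was used: it was -1.90 without shCtrl replicate 2 and -0.74 without shCxxc5 replicate 2, both still past the threshold. For Gbp6, 2 counts in the replicate 2 libraries stood against 77 in the other 4, a depth-corrected ratio of 0.0376 (exact 95% interval 0.00447 to 0.140, counting error only).

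The other GBP, IRG and Mx genes were low in the same libraries. Of 20 listed, 17 were tested, and 16 of these were lower in replicate 2, with a median log2 fold change over the 17 of -2.11. Gbp10, with 9 and 5 counts in replicate 2, passed the filter on low counts only through replicates 3 and 4, as Gbp6 did, so its call adds nothing to that count. Gm12250 (-3.30) and Gm4951 (-3.29), both of the IRG family, had the lowest values. GENCODE M21 types Gm12250 as a processed pseudogene. Gbp11 (-0.93) and Gbp8 (-1.05), which lie on chromosome 5 with Gbp9, had values nearest to 0 among those called. The exception was Irgq, an IRG relative outside the interferon-induced clusters, at 26.2, 25.5 and 26.1 CPM in shCtrl and 23.6, 23.8 and 23.6 CPM in shCxxc5 (log2 fold change 0.01 ± 0.08, edgeR adjusted p = 0.953). Its replicate 2 libraries lay at the level of the others. Mx1 and Mx2, of the Mx family of dynamin-like antiviral GTPases, were at -2.11 and -2.18. GENCODE M21 types Mx2, and also Gbp11, as a polymorphic pseudogene. Among 10 of these 20 genes with a RefSeq window, 7 had an ISRE match and 5 a GAS match. Irgq, Ifi47 and 9930111J21Rik2 had neither, although Ifi47 (-1.18) and 9930111J21Rik2 (-1.77) were lower in replicate 2 and Irgq did not pass the test.

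**Figure D2:**
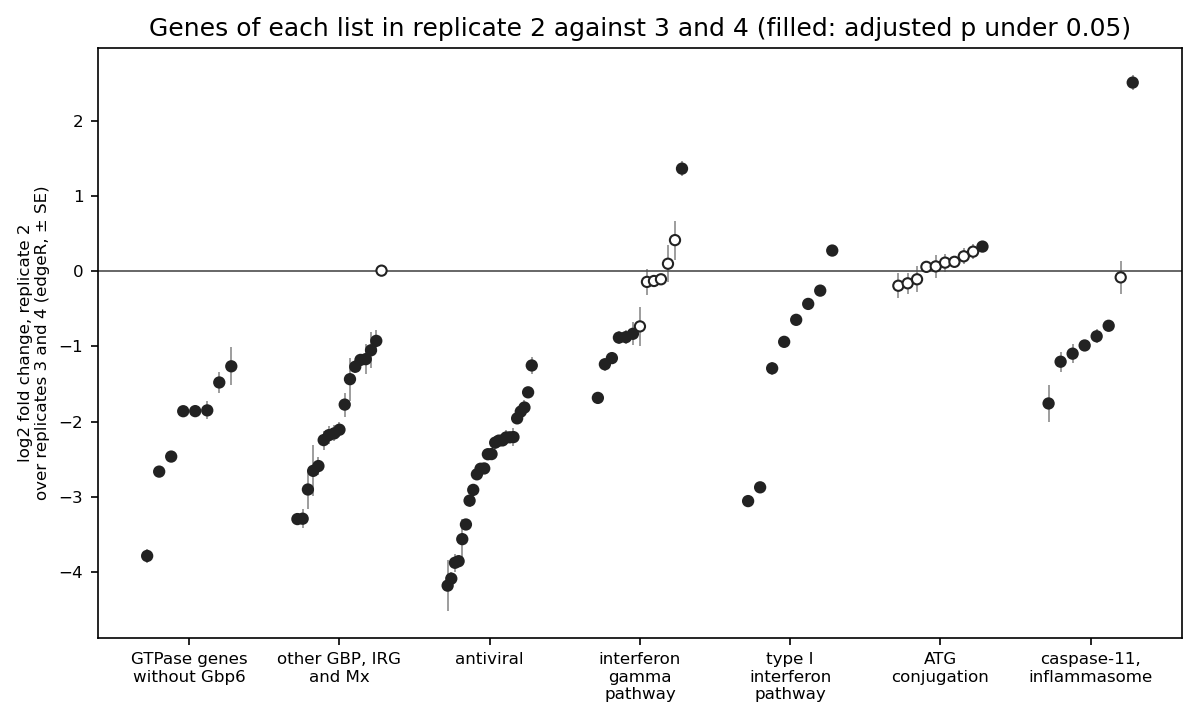
Log2 fold change of replicate 2 over replicates 3 and 4 (y axis, edgeR, bars ± SE) for each tested gene of 7 lists (x axis, sorted by value within a list), with filled points at an adjusted p under 0.05. The GTPase genes (Gbp6 is not drawn, for its 2 counts in replicate 2) lie between -3.79 and -1.27, the antiviral genes between -4.18 and -1.25, and the ATG conjugation genes between -0.19 and 0.33.

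Upstream of the GTPases, the interferon gamma pathway list held 13 tested genes, of which 6 were lower and 1 was higher in replicate 2. Beside this list and those below, 18.7% of all genes tested were lower and 17.7% higher. Irf1, the interferon-induced factor that binds ISRE-type motifs, was at 79.9, 163.9 and 176.9 CPM in shCtrl replicates 2, 3 and 4 and at 62.4, 163.6 and 163.8 CPM in shCxxc5 (log2 fold change -1.24 ± 0.09, edgeR adjusted p = 0.00023). Of the receptor chains, Ifngr2 was lower (-0.88) and Ifngr1 did not pass the test (0.10). Nor did the kinases Jak1 (-0.13) and Jak2 (-0.11) or the factor Irf2 (0.41) pass, and Irf8 was lower (-0.88). Socs1, a feedback inhibitor of JAKs, was lower at -1.16, and Ciita, the activator of MHC class II genes, was the gene that was higher, at 1.36 (named after its value was seen). Ifng itself had 2 counts or fewer in each library and was not tested.

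In the type I interferon list 7 of 8 tested genes were lower in replicate 2. Usp18, a negative regulator of the type I receptor, was at -3.06, and Irf7, the factor that amplifies interferon production, at -2.87. Stat2 (-1.29), Irf9 (-0.94), the receptor chains Ifnar2 (-0.65) and Ifnar1 (-0.44), and Irf3 (-0.26) had smaller values, and the kinase gene Tyk2 was higher at 0.27. Ifnb1 had 1 count or fewer in each library. Antiviral genes were lower in 24 of 24 cases, with a median of -2.43. The 3 of smallest p were Ifi44 (-3.37), Ifit1 (-2.91) and Oasl2 (-3.86), all interferon-induced, and Ifi44 was at 66.3, 680.9 and 699.7 CPM in shCtrl and 68.5, 709.4 and 694.7 CPM in shCxxc5.

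The proteins that act with the GTPases gave a different picture by list. ATG conjugation genes, whose products attach LC3 and GABARAP to membranes and direct the GTPases to vacuoles, were lower in 0 of 10 cases, and Map1lc3b, which encodes an LC3 protein, was higher (0.33 ± 0.07, edgeR adjusted p = 0.0132). Of 8 tested genes of the caspase-11 and inflammasome list, 6 were lower. Casp4, which encodes caspase-11, was at -0.99, and Gsdmd, which encodes the pore-forming protein it cuts, at -0.73. Il1b, the cytokine gene, was higher at 2.51. Among these lists the counts of genes called were not tested against each other.

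Marker genes of some other cell types differed in replicate 2. The summed level of 6 megakaryocyte genes was 4574.6 and 1143.4 CPM in replicate 2 of shCtrl and shCxxc5, against 85.8 to 139.6 CPM in the other 4 libraries, and 6 of 6 were higher. Gp1ba, with 15 counts or fewer in each of those 4 libraries, passed the filter on low counts only through replicate 2. Its call therefore adds nothing to that count. Erythroid genes summed to 64.4 and 183.6 CPM against 12.2 to 18.4 CPM, with 5 of 5 tested genes higher. For granulocyte genes the sums were 819.2 and 4613.7 CPM against 1183.3 to 1383.5 CPM, and for mast and basophil genes 162.7 and 1317.4 CPM against 267.9 to 301.0 CPM, so these 2 lists differed between the replicate 2 libraries. Of 6 granulocyte genes 1 was called higher and 1 lower, and of 4 mast and basophil genes 1 was called higher. The 8 LSK genes summed to 1423.9 and 983.9 CPM against 2373.1 to 2463.0 CPM, but singly they were split, with 3 higher and 3 lower in replicate 2. Of the genes that define the gate, Ly6a, which encodes Sca-1 and is itself interferon-inducible, was at 46.4 and 33.1 CPM against 703.3 to 804.5 CPM, while Kit did not pass the test (-0.19, adjusted p = 0.117). T cell genes summed to 2.70 CPM or less and B cell genes to 1.39 CPM or less in every library, and Cd3e had 0 counts in all 6. NK cell genes summed to 22.3 and 62.3 CPM against 36.2 to 40.4 CPM. Macrophage and monocyte genes summed to 92.2 and 90.6 CPM against 90.9 to 121.2 CPM, and dendritic genes to 10.9 and 10.0 CPM against 7.16 to 9.05 CPM. No tested gene of the T cell, NK cell, macrophage and monocyte or dendritic lists was called in replicate 2. Endothelial genes summed to 207.4 and 184.7 CPM against 144.2 to 167.8 CPM, and stromal genes to 21.4 and 4.97 CPM against 22.3 to 29.8 CPM. In each of these lists 1 of 2 tested genes was called, and it was higher, also in the stromal list, whose sum was lower. The part of these cell types in the GTPase levels was not tested.

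In replicates 3 and 4, where the libraries of a group were close to each other, the Cxxc5 hairpin went with small changes of the GTPase genes in both directions. Gbp2, Gbp3 and Gbp9 were lower and Gbp7 and Irgm1 higher in shCxxc5, which made 5 of 9 called beside 20.0% of the 14193 genes tested (11% higher and 9% lower). The median over the 9 genes was -0.05 on the log2 scale and that of all genes -0.00303. With library totals alone, the calls over all genes shifted from 1555 higher and 1278 lower to 1120 higher and 1606 lower.

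Gbp2 had the lowest value of the 9, with a log2 fold change of -0.35 ± 0.07 (SE, edgeR quasi-likelihood test, Benjamini-Hochberg adjusted p = 0.000883), or 1.27-fold lower. Gbp9 was at -0.23 ± 0.07 (adjusted p = 0.0277) and Gbp3 at -0.18 ± 0.04 (adjusted p = 0.00222). For each of these 3 genes both shCxxc5 libraries lay below both shCtrl libraries, as they did for 29.3% of all genes. Gbp7, close to Gbp3 on chromosome 3, was higher by 0.23 ± 0.04 (adjusted p = 3.51e-05), or 1.17-fold. Irgm1 was higher by 0.12 ± 0.03 (adjusted p = 0.0114), and both genes had both shCxxc5 libraries above both shCtrl libraries, as did 27.4% of all genes.

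The other 4 genes did not pass. Igtp was at 0.09 ± 0.04 (edgeR adjusted p = 0.085), Iigp1 at -0.10 ± 0.04 (adjusted p = 0.115), Irgm2 at 0.00 ± 0.06 (adjusted p = 0.996) and Gbp6 at -0.05 ± 0.41 (adjusted p = 0.955). The SE of Gbp6 came from counts of 11 to 28, so a change of the size seen in the other genes was not detectable at this depth. Only Gbp7 among the 5 called genes was called whichever of the 4 libraries was left out. Gbp2 was lost without shCtrl replicate 3 (adjusted p = 0.0629) and without shCxxc5 replicate 3 (adjusted p = 0.0592), Gbp3 without shCxxc5 replicate 3 (adjusted p = 0.0542), Gbp9 without each of the 4 (adjusted p from 0.0806 to 0.156) and Irgm1 without each of the 4 (adjusted p from 0.0554 to 0.100). DESeq2 called 3 of the 9, namely Gbp2, Gbp3 and Gbp7, and with library totals alone Irgm1 was lost (adjusted p = 0.0522) and Iigp1 was called lower (adjusted p = 0.0429).

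Set beside all relatives in the annotation, the GBP genes were mostly lower in shCxxc5 replicates 3 and 4. Of 11 tested, 8 were lower, 1 was higher (Gbp7) and 2 did not pass (Gbp6 and Gbp10), with a median of -0.34. Gbp8 (-0.67), Gbp11 (-0.62) and Gbp4 (-0.48), all on chromosome 5 with Gbp9, had the lowest values, and Gbp5 (-0.34) and Gbp2b (-0.26), on chromosome 3, were also lower. Gbp4 was at 30.5 and 27.2 CPM in shCtrl replicates 3 and 4 and at 20.1 and 21.4 CPM in shCxxc5. Of 13 IRG genes tested, 1 was lower (Gm4951, -0.40), and 2 were higher (Irgm1 and Ifi47, 0.25). Over all genes tested 20.0% were called, so the share among the IRG genes was close to the background. Ifi47, an IRG effector also called Irg47, was at 195.6 and 200.3 CPM in shCtrl and at 238.6 and 231.2 CPM in shCxxc5. The difference between the 2 families was not tested.

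**Figure D3:**
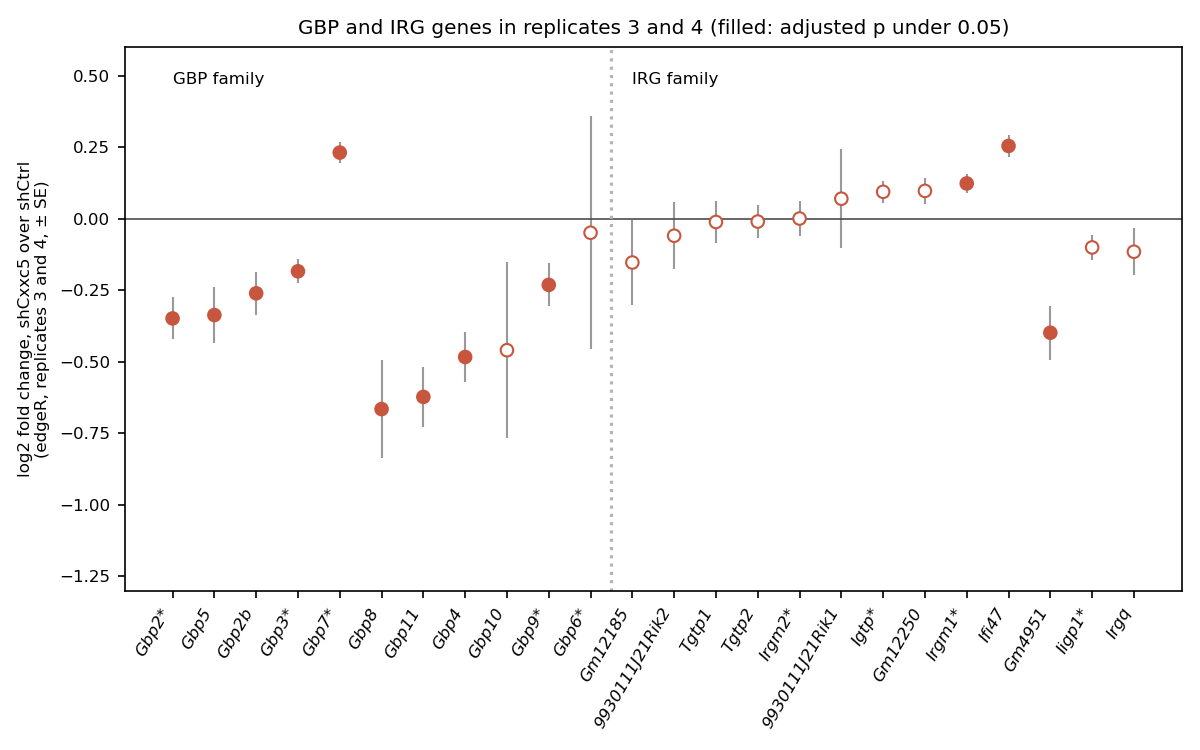
Log2 fold change of shCxxc5 over shCtrl in replicates 3 and 4 (y axis, edgeR, bars ± SE) for 11 GBP and 13 IRG genes (x axis, by family and chromosome, with an asterisk on the 9 genes described here), with filled points at an adjusted p under 0.05. Of the GBP points, 8 are filled below 0 and Gbp7 is filled above, and 10 IRG points are open.

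In these 4 libraries, interferon gamma pathway genes were lower in 7 and higher in 1 of 13 cases, including Jak2 at -0.24 ± 0.04 (edgeR adjusted p = 3.09e-05), while Irf1 (-0.05) and Jak1 (0.04) did not pass. Ifngr1 (-0.14) and Ifngr2 (-0.21), the receptor chains, were lower, Irf8 was higher (0.18) and Ciita was the lowest of the list at -0.77. In the type I list 3 of 8 genes were lower, namely Usp18 (-0.22), Stat2 (-0.13) and Irf9 (-0.12). Of the antiviral genes 6 were lower, 3 higher and 15 did not pass, with a median of -0.03. Inflammasome genes were lower in 3 of 8 cases, Casp4 at -0.49, Nlrp3 at -0.84 and Il1b at -1.62, and among ATG genes Map1lc3a, an LC3 gene, was lower at -0.47. Of all genes tested in these 4 libraries, 9% were lower and 11% higher, a share that also stands beside the marker lists below.

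Markers that moved with the hairpin in replicates 3 and 4 were summed in the same way. Megakaryocyte genes were at 131.3 and 139.6 CPM in shCtrl and 89.1 and 85.8 CPM in shCxxc5 (3 of 5 tested genes lower), and macrophage and monocyte genes at 110.5 and 121.2 against 90.9 and 93.0 CPM (3 of 4 lower). Granulocyte genes were at 1211.9 and 1183.3 against 1310.8 and 1383.5 CPM (3 of 6 higher). Mast and basophil genes were at 267.9 and 287.6 against 301.0 and 288.0 CPM, with 3 of 4 higher and 1 lower. Erythroid genes were at 16.5 and 18.4 against 12.2 and 12.3 CPM (2 of 5 lower). Endothelial genes were at 167.8 and 167.0 against 144.2 and 148.8 CPM (1 of 2 lower). LSK genes were at 2463.0 and 2373.1 against 2408.7 and 2425.4 CPM, with 2 of 8 higher and 2 lower. In the T cell, NK cell, dendritic and stromal lists no gene was called. The part of these cell types in the GTPase differences was not tested.

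Over all 6 libraries without regard to the number, no GTPase gene was called: 0 of 9, beside 0.00% of 14637 genes in edgeR. The targeted gene Cxxc5, at a log2 fold change of -2.25, was not called in this fit either. A gene not called here may therefore still have changed. At an unadjusted p under 0.05 edgeR had 575 genes, while DESeq2 called 19 and limma-voom 0, none of them a GTPase gene. Irgm1 averaged 234.6 ± 128.5 CPM in shCtrl and 253.8 ± 141.0 CPM in shCxxc5 (SD, n = 3), and Iigp1 averaged 88.7 ± 69.6 and 83.1 ± 63.7 CPM (SD, n = 3). Gbp7 averaged 172.4 ± 97.2 and 203.6 ± 110.0 CPM (SD, n = 3). In each case the SD came mostly from replicate 2 and exceeded the distance between the groups. Fitted log2 fold changes ran from -0.44 ± 0.51 (Gbp9) to 0.24 ± 0.65 (Gbp7), and the values of the 2 groups overlapped for 9 of the 9 genes (all shCxxc5 libraries lay below all shCtrl libraries for 6.35% of all genes and above them for 6.72%).

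Within the pairs of equal number, shCxxc5 over shCtrl kept 1 direction for 3 of the genes. Gbp7 was higher in 3 of 3 pairs, by ratios of 1.28, 1.20 and 1.14 in replicates 2, 3 and 4, and its lowest exact 95% bound was 1.09 (counting error only, as for all intervals on ratios). Irgm1 was higher in 3 of 3 pairs at 1.05, 1.08 and 1.09, though in replicate 2 the interval of 0.994 to 1.12 held 1. Gbp9 was lower in 3 of 3 pairs, at 0.381, 0.853 and 0.844, and no interval held 1.

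The remaining genes changed side between pairs. Gbp2 was at 1.09 (0.937 to 1.27), 0.721 (0.654 to 0.794) and 0.866 (0.770 to 0.973) in replicates 2, 3 and 4. Gbp3 was at 1.02, 0.863 and 0.894, and Iigp1 at 1.13, 0.911 and 0.953. All 3 were above 1 in replicate 2 with an interval that held 1. Igtp was at 0.982, 1.06 and 1.07, and only in replicate 2 did its interval hold 1. Irgm2 was at 0.742 (0.647 to 0.850), 1.02 and 0.973, lower in replicate 2 beyond counting error and with intervals that held 1 in the other pairs. Gbp6 gave 0.607 (0.312 to 1.15) and 1.75 (0.808 to 4.02) in replicates 3 and 4 and no usable ratio in replicate 2.

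**Figure D4:**
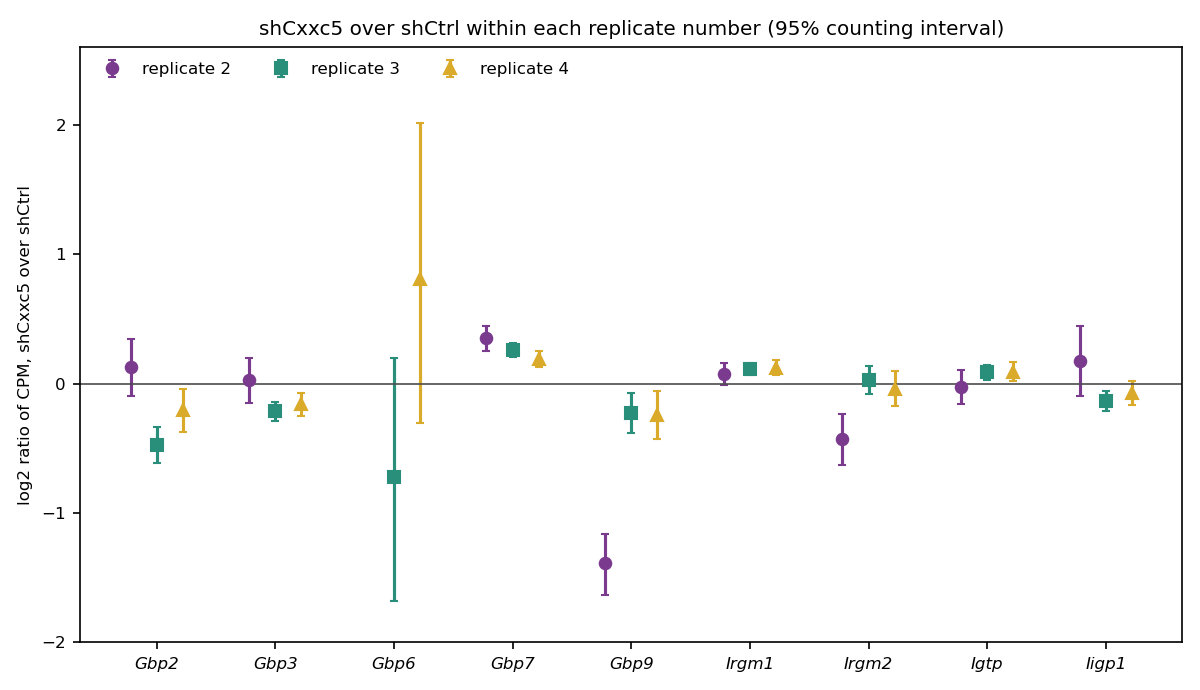
Log2 ratio of CPM, shCxxc5 over shCtrl (y axis), within replicates 2, 3 and 4 for the 9 GTPase genes (x axis), with exact 95% counting intervals as bars. Gbp9 in replicate 2 lies at -1.39 and at -0.23 and -0.25 in replicates 3 and 4, Gbp7 lies above 0 in the 3 pairs, and Gbp6 has no point for replicate 2, where shCtrl had 0 counts.

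Whether the pairs differed was tested with an interaction term, whose spread came from replicates 3 and 4 alone (2 residual degrees of freedom) and was assumed for the single replicate 2 library of each group. It called 3 of 9 GTPase genes, beside 35.8% of all genes, so the share among the GTPases was close to the background. Gbp9 had a difference of -1.16 ± 0.16 (edgeR adjusted p = 1.05e-07), Irgm2 one of -0.43 ± 0.13 (adjusted p = 0.0104) and Gbp2 one of 0.48 ± 0.15 (adjusted p = 0.0131), each as replicate 2 minus replicates 3 and 4 on the log2 scale. DESeq2 called only Gbp9 of the 9 (adjusted p = 7.17e-05). Of the other GBP genes on chromosome 5, Gbp4 had ratios of 0.400, 0.660 and 0.786 in replicates 2, 3 and 4 and a difference of -0.83 (edgeR adjusted p = 0.00017). Gbp11 had 0.458, 0.635 and 0.664 (difference -0.50, adjusted p = 0.0506), whereas Gbp8 had 1.10, 0.681 and 0.572 (0.81, adjusted p = 0.0633).

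The genes whose levels over the 6 libraries were most like the mean of the 9 GTPases were ranked by the root mean square difference of log2 CPM, each centred on its own mean. This is a description over 6 libraries that share the split of replicate 2. The mean includes Gbp6, which had 0 counts in shCtrl replicate 2 and 2 counts in shCxxc5 replicate 2. The order was not ranked again without Gbp6, so the places of genes with close values are uncertain. The closest was Oas1a, an antiviral 2′-5′ oligoadenylate synthetase, at a difference of 0.0535, with 30.5, 141.1 and 144.8 CPM in shCtrl and 30.1, 143.7 and 146.4 CPM in shCxxc5. Epsti1 (0.0582), Parp12 (0.0635), Parp14 (0.0636), Dhx58 (0.0648), Trim30a (0.0866), Phf11b (0.0882) and Slfn8 (0.0936) followed. The mean profile of the GTPases itself was at -1.49, 0.83 and 0.72 in shCtrl replicates 2, 3 and 4 and at -1.53, 0.70 and 0.77 in shCxxc5. Gbp9 left it most visibly in shCtrl replicate 2, where it stood at -0.18.

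Some of these values depend on how reads of near-identical genes were assigned, which is not given in the sources used here. For Gbp6, 70.7% of the 50-base stretches of its transcripts also occurred in another gene, mainly Gm43302 and Gbp10, so its level is uncertain. The share was 12.7% for Gbp7 (mainly Gm43802), 11.8% for Igtp (Irgm2), 8.05% for Gbp9, 7.83% for Irgm2, 3.75% for Gbp3, 2.03% for Gbp2, 1.69% for Iigp1 and 0.379% for Irgm1. Exons of Igtp and Irgm2 overlapped by 162 bases on the same strand. Same-strand overlaps were 1726 bases for Gbp6 (with Gm43302), 637 for Gbp7 (with Gm43802) and 120 for Gbp9 (with Gbp8 and Gbp4). Among the relatives, the shared part was 86.6% for Tgtp2, 84.1% for Gbp10, 83.2% for 9930111J21Rik1 and 81.2% for Tgtp1. It was 19.2% for Gbp11, 18.1% for Gbp8 and 7.78% for Gbp4, and Gm12250 had none.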

How the data were processed

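RNA of sorted LSK cells was measured in 6 libraries, 3 per group. The authors deposited raw read counts per gene. STAR 2.5.2b, featureCounts 1.5.1, DESeq2 and the build GRCm38 are named in the submitters' processing notes, without an order. Per the labels' protocols, the kit was stranded. Not given in the sources used here are the annotation release, the strand setting and the treatment of reads that map to several genes. Nor do they say which libraries had single reads and which had paired reads.

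Symbols came from GENCODE M21 for 49412 of 49671 identifiers; the other 259 held 0.0557% of counts. In all, 22654 genes had 0 counts everywhere. Depth was 15002414 to 27754019 counts per library, without molecular identifiers, so intervals cover counting error only.

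Counts were tested with edgeR 4.0.16 in R 4.3.3 (TMM, filterByExpr by group, robust quasi-likelihood test, Benjamini-Hochberg adjustment over all genes tested, threshold 0.05). The fits were group over 6 libraries, group in replicates 3 and 4, replicate 2 against 3 and 4 with the group as a term, and their interaction. Each SE is the size of the log2 fold change over the root of its F statistic. CPM were scaled by TMM, with a prior count of 2 for log2 CPM. Ratios within pairs have exact Clopper-Pearson 95% intervals. Code was tested on simulated data. Alternatives were DESeq2 1.42.0, limma-voom (limma 3.58.1), other scalings and filters, no robust fit, a replicate block and each library left out.

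The genes, lists and split by replicate were chosen with earlier results of these data known. Named genes are the 9 members, their relatives, ligand, receptor, JAK, STAT and IRF genes, up to 3 per pathway list of smallest p per comparison, and 8 by likeness of profile. A gene that this rule takes is not reported here. Chosen with their values in view were Ciita in replicate 2 and the markers Ly6a, Kit, Cd3e and Gp1ba.

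As a check of pairing, each library's deviation from its group mean was correlated, over genes, with that of the library of equal number. The values were 0.670 for number 2, 0.554 for number 3 and 0.489 for number 4, all above the 0.1 that counted as paired. Number 3 against number 4 gave 0.489 and 0.475, so only number 2 sets the pairs apart. Deviations from a group mean balance out within the group. The shift of number 2 in both groups therefore pushes numbers 3 and 4 to the same side. Their values above 0.1 cannot show whether numbers 3 and 4 were paired.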

Additional observations from a re-analysis of the deposited data

Results flagged for a closer look

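For 3 genes the distance of replicate 2 from replicates 3 and 4 was not the same in both groups, by the interaction test in edgeR (values are the shCxxc5 over shCtrl log2 difference in replicate 2 minus that in replicates 3 and 4). Gbp9 was at -1.16, because shCxxc5 replicate 2 held 7.57 CPM and shCtrl replicate 2 held 19.9 CPM, whereas the groups were at 28.2 to 28.3 and 33.1 to 33.4 CPM in the other libraries. Irgm2 was at -0.43 and Gbp2 at 0.48. The 3 of 9 genes are no more than the 35.8% of all genes tested that the same test called, so the count is no result about the GTPases, and the test rests on 1 replicate 2 library per group. DESeq2 called Gbp9 but neither Irgm2 (adjusted p = 0.146) nor Gbp2 (adjusted p = 0.149). Markers of granulocytes and of mast and basophil cells also differed between the replicate 2 libraries, at 819.2 against 4613.7 CPM and 162.7 against 1317.4 CPM in shCtrl and shCxxc5, and their part in these differences was not tested.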

How the results depend on the processing

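Lower levels of 8 GTPase genes in replicate 2 (Gbp6 was left out for its counts) kept direction and threshold under 13 alternatives, while the genes called ran from 3183 (without shCtrl replicate 3) to 8816 (without shCxxc5 replicate 2). Over all 6 libraries, DESeq2 called 19 genes and DESeq2 with the replicate block, chosen after seeing the data, 147; with the block in edgeR 0 genes and 0 GTPases were called. In replicates 3 and 4 the block gave 3300 genes and 5 GTPases, and it changed no other call. There DESeq2 called 1353 genes and 3 GTPases, and leaving out a library 1507 to 2043 genes and 1 to 3 GTPases. In the interaction test DESeq2 called 2390 genes and 1 GTPase. Directions turned only for genes that were not called. Over 6 libraries, leaving out 1 library gave log2 fold changes from -0.656 to 0.043 for Gbp2, -0.658 to 0.298 for Gbp3, -0.168 to 0.632 for Gbp7, -0.284 to 0.516 for Irgm1, -0.433 to 0.367 for Irgm2, -0.377 to 0.546 for Igtp and -0.635 to 0.438 for Iigp1. In replicates 3 and 4, Irgm2 ran from -0.0686 to 0.0589 with a library left out and was at -0.000795 in DESeq2, -0.0268 with library totals, -0.0024 without the filter and -0.00352 where 3 libraries had to reach 1 CPM. The interaction of Irgm1 was 0.00864 with library totals and 0.00526 without the filter, against -0.04 as reported, and the calls over all genes moved from 2453 higher and 2782 lower to 2850 and 2324 with library totals. The cause of these shifts was not tested beyond the smaller number of libraries where 1 was left out. With 2 libraries per group, and 1 where a library was left out, the spread is borrowed across genes, and Gbp6, at 28 counts or fewer, gives no usable fold change.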
